A study of Mus musculus with 24 samples.

Results

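The presynaptic vesicle release machinery is taken here as 38 genes for SNARE proteins, synaptic vesicle proteins, active zone scaffolds and vesicle recycling enzymes, chosen by name and not by their values. All 38 were found among the 52636 gene identifiers of the count tables, and 37 passed the low-count filter that left 19726 genes for testing. The exception was Rims1, with 121 counts in all libraries together. RNA came from mouse brain of a pair of Cre lines aimed at the glutamate transporter EAAT2, the product of Slc1a2: a syn line, the neuronal arm, and a gfap line, the astrocytic arm. The Cre-positive groups were syn-Cre+ EAAT2−/− and gfapCre+ EAAT2Δ/+, and the Cre-negative groups of both lines were EAAT2+/+. Each of the 4 groups held 6 libraries. The extraction protocol gives 6 mice for each group, while the series' design text can be read as 6 mice in all, so whether the 24 libraries are 24 separate mice is not settled, and the p-values measure the spread between libraries. The labels give no age, brain region or handling date, do not describe the Cre transgenes or their promoters, and name the Cre-positive genotypes differently in the lines, so line, allele and any batch cannot be told apart.

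At a nerve terminal, transmitter-filled vesicles dock at the active zone, are primed by Munc13 proteins, and fuse when calcium binds synaptotagmin and the SNARE proteins Snap25, syntaxin 1 and synaptobrevin zip the membranes together. Complexins hold and release the SNARE complex, NSF with its SNAP adaptors takes it apart, and dynamin, amphiphysin, endophilin and synaptojanin retrieve the vesicle membrane. Most of these genes are expressed mainly by neurons, and in glutamatergic neurons this machinery releases the glutamate that EAAT2 removes.

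Gene counts summed to between 41596313 and 69652824 per library. The transporter gene Slc1a2 itself stood at 2616, 3031 and 3235 CPM (counts scaled by TMM to a common library total; lowest, median and highest) in the libraries labelled syn Cre-positive and at 3227, 3292 and 3461 CPM in those labelled syn Cre-negative. It stood at 3043, 3549 and 3855 CPM in the libraries labelled gfap Cre-positive and at 2494, 3636 and 3980.2 CPM in those labelled gfap Cre-negative. The log2 fold change of Slc1a2 by Cre status was −0.14 in the syn line (interval −0.30 to 0.016). There 5 of 6 Cre-positive libraries were below all Cre-negative ones. In the gfap line it was −0.015 (interval −0.17 to 0.14), and 0 of 6 were. Neither Cre comparison passed for Slc1a2 (adjusted p = 1.00 in both, edgeR), so directions below are between libraries as labelled. A pair of libraries stood apart: syn Cre-negative 5 had the highest shares of ambiguous reads (7.46%) and unaligned reads (4.71%), and gfap Cre-negative 4 was low in long transcripts and high in short ones (mean log2 deviation of long minus short coding genes −0.50). Reads outside annotated genes took 7.52 to 11.1% in the syn line and 4.47 to 6.37% in the gfap line, with no overlap.

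Promoter sequences are shown for 4 members whose levels are described below: Syn2 and Sh3gl2, lower in the syn line, Syn1, which did not pass any comparison, and Unc13a, whose values lay on the other side. Each is the 250 bases before a RefSeq transcription start in GRCm38.p6, 5′ to 3′ on the gene's own strand. The windows lie at chr6:115134652-115134901 (plus strand) for Syn2, chr4:85205206-85205455 (plus) for Sh3gl2, chrX:20920919-20921168 (minus) for Syn1 and chr8:71671758-71672007 (minus) for Unc13a. Capitals mark every match, on either strand, to a GC box (GGGCGG), a cAMP response element (TGACGTCA), a TATA box (TATAAA), a 9-base EGR site (GCGTGGGCG) or the core of the RE1 silencer element.
Syn2: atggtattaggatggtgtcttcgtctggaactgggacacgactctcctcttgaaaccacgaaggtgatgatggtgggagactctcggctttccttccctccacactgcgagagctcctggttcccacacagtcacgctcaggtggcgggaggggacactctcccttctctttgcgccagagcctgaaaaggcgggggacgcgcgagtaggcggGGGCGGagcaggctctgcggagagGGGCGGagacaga
Sh3gl2: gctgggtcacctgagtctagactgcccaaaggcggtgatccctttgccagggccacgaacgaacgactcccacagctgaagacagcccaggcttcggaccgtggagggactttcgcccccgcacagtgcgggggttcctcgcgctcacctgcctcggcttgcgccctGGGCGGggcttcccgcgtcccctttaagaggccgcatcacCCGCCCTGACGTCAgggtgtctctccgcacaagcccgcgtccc
Syn1: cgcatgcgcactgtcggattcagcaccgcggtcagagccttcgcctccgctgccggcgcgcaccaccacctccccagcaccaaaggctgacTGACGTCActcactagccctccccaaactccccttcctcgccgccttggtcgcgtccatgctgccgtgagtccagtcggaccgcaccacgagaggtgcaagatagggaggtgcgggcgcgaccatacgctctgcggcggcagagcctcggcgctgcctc
Unc13a: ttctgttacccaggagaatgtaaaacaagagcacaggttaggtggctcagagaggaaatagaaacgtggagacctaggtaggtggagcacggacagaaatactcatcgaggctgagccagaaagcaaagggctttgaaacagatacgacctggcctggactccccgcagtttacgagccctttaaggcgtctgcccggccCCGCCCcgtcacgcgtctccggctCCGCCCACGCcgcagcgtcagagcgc

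RefSeq windows were found for 32 of the 38 members, with a median GC content of 61.2% against 58.8% for tested genes. GC boxes stood in 23 of the 32 (71.9%), against 59% of the 13033 tested genes with a window and 35.4% of all 27025 genes with one. The cAMP response element stood in Sh3gl2 and Syn1 (6.25% against 2.79% of tested genes), the EGR site in Synj1 and Unc13a (6.25% against 1.14%) and the TATA box in Sv2b (3.12% against 8.65%). An exact match to the RE1 core was in none of the 32 windows and in 0.0614% of tested genes. Near matches were not counted, and the Syn1 window holds a near match to this core. The search therefore does not show that Syn1 or any other member lacks an RE1 element. In Sh3gl2 a GC box abuts the cAMP response element, and in Unc13a a GC box overlaps the EGR site. These are matches of letters in a fixed window. They are a description and not binding sites, and the motifs and the printed genes were picked after their levels were known.

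Per kilobase of merged exons, the SNARE gene Snap25 was the most abundant member, at 355 ± 36.9 CPM per kb (SD over 24 libraries). The fusion clamp Cplx2 followed at 334 ± 51.8 CPM per kb and the vesicle SNARE Vamp2 at 307 ± 27.0 CPM per kb, and these leading members overlapped in their ranges over libraries. The membrane fission GTPase Dnm1 stood at 263 ± 21.1, the second complexin Cplx1 at 253 ± 30.5 and the calcium sensor Syt1 at 214 ± 22.8 CPM per kb. Active zone genes were lower per length: the priming factor Unc13a stood at 29.3 ± 2.77, the scaffold Bsn at 28.8 ± 4.45 and the scaffold Pclo at 12.2 ± 1.85 CPM per kb.

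Gene families differed in how far 1 member led. Per kilobase, Syt1 exceeded Syt2 38.9-fold, Sv2a exceeded Sv2c 31.7-fold, Vamp2 exceeded Vamp1 20.3-fold, Unc13a exceeded Unc13c 10.1-fold and Erc2 exceeded Erc1 8.95-fold. The complexins were close, with Cplx2 1.31-fold above Cplx1, as were Syn1 over Syn2 (1.43-fold), Napb over Napa (1.49-fold), Syngr1 over Syngr3 (1.54-fold), Sv2a over Sv2b (1.61-fold) and Bsn over Pclo (2.36-fold). Syn3 was minor, 274-fold below Syn1. These folds depend on the merged exon length, which joins all annotated exons of a gene, and the order turned for the pairs Syn2 with Syn1 and Sv2b with Sv2a. On counts, Syn2 lay above Syn1 in every library (log2 ratio 0.24 to 0.75). Sv2b lay above Sv2a in the mean of every group (log2 ratio 0.043 to 0.29). The log2 ratio of Syn2 to Syn1 counts was lower in every syn Cre-positive than in every gfap Cre-positive library (mean difference −0.15, on counts), while the groups overlapped for this pair in the other comparisons and for the other 13 of 14 pairs in all 4 comparisons.

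Counts of several members carry limits. Rims1, a scaffold that holds calcium channels at the active zone, had 0 to 11 counts per library, and Rab3a, a vesicle GTPase described as abundant in brain, stood near 1 CPM (lowest 0.675, highest 2.33). Why the deposited counts of both are so low was not tested. Exons of Doc2a (39.35% of bases), Syp (16.79%), Syn3 (14.11%) and Erc1 (11.79%) overlap exons of genes on the other strand, and no source used here gives the strand setting of the counting, so the origin of reads in such overlaps is uncertain.

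**Figure D1:**
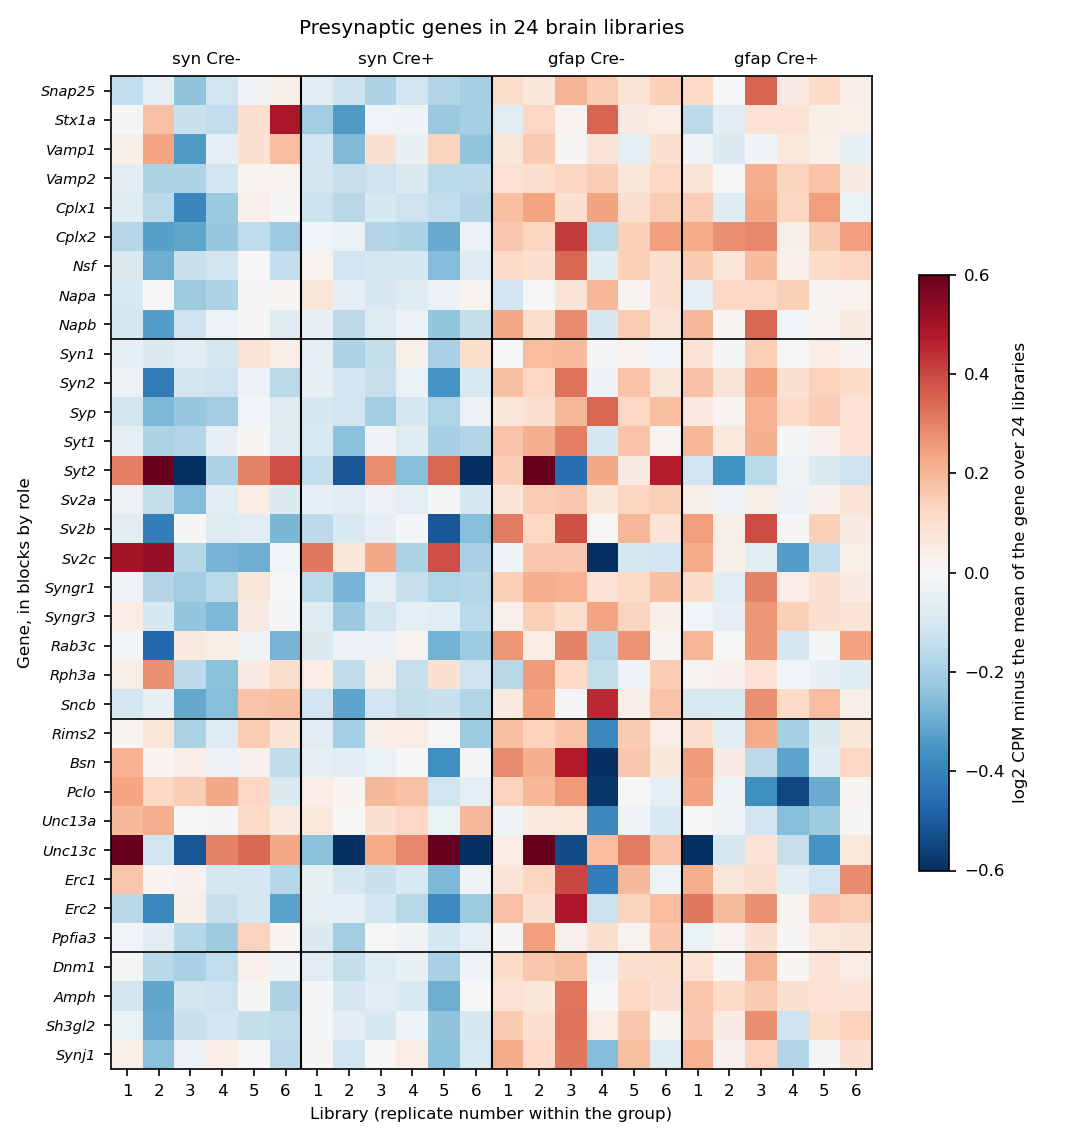
Deviation of each gene's log2 CPM from its mean over 24 libraries (colour) for 34 members in rows and libraries in columns, with blocks by role from top to bottom (SNARE proteins, vesicle proteins, active zone, endocytosis) and colour saturating at 0.6. Rims1, Rab3a, Doc2a and Syn3 are left out for their low counts. Snap25, Vamp2, Syp and Syn2 are mostly blue in both syn groups and mostly red in both gfap groups, and gfap Cre-negative 4 is dark blue for the scaffolds Bsn and Pclo.

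The first question was whether the release machinery differs between Cre-positive and Cre-negative brains in the neuronal arm. None of the 37 tested members passed in the syn line (0 higher and 0 lower, edgeR quasi-likelihood test, adjusted p under 0.05), where 0.00507% of all genes tested were called. At an unadjusted p under 0.05 stood 1 member, Stx1a, or 2.70% against 4.67% of all genes, and DESeq2 and limma-voom called 0 members. The median log2 fold change of the members was −0.03, against −0.003 over all genes, and 25 of 37 values were negative, against 51.4% of all genes. No member had separate groups (0 of 37, against 0.0963% of all genes lower and 0.106% higher without overlap). For 25 of 37 members the 95% interval of the log2 fold change lay within ±0.25 (1.19-fold), and for 34 within ±0.5 (1.41-fold). Differences by Cre status smaller than these limits are therefore not excluded.

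Stx1a, the syntaxin of the plasma membrane, had the smallest p in the syn line. It stood at 77.8, 85.3 and 97.4 CPM (lowest, median and highest) in the syn Cre-positive libraries and at 89.0, 102 and 138 CPM in the syn Cre-negative ones. The groups overlapped, and 4 of 6 Cre-positive libraries were below all Cre-negative ones. Its log2 fold change was −0.26 (95% interval −0.44 to −0.087, SE 0.086, adjusted p = 0.739 by edgeR), and −0.17 without library syn Cre-negative 6, the highest at 138 CPM.

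Next in order of p was Cplx2, at 1322, 1514 and 1609.7 CPM in the Cre-positive and 1299, 1397 and 1468 CPM in the Cre-negative libraries of the syn line. Its groups overlapped and its log2 fold change was 0.11 (95% interval −0.028 to 0.25, SE 0.067, adjusted p = 1.00 by edgeR). Syngr1, a vesicle membrane protein, stood at 467, 505 and 546 CPM in the Cre-positive and 490.4, 532 and 594 CPM in the Cre-negative libraries, also overlapping, with a log2 fold change of −0.082. Syt2, the fast calcium sensor of hindbrain and some inhibitory terminals, varied widely inside both groups, at 25.2, 36.5 and 53.1 and 24.2, 51.6 and 73.1 CPM, so that its log2 fold change of −0.33 had a wide interval. Vamp1, a synaptobrevin, stood at 128, 145 and 168 and 122, 161 and 181 CPM (Cre-positive first) with a log2 fold change of −0.10.

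By role, in the syn line, the median log2 fold change was −0.01 for the 9 genes of SNARE proteins and their handling, −0.04 for the 16 vesicle genes, −0.08 for the 8 active zone genes and 0.02 for the 4 endocytosis genes. The priming factor Unc13a (−0.025), the scaffolds Bsn (−0.10) and Pclo (−0.086) and the recycling gene Dnm1 (−0.0063) did not pass and are given as values. Of 80 other presynaptic genes tested, 0 passed by edgeR or DESeq2. At an unadjusted p under 0.05 (edgeR) stood 5 (6.25%), against 4.67% of all genes. The list holds SNARE regulators, synaptotagmins, other vesicle proteins, scaffolds, neurexins, calcium channel subunits, and clathrin and adaptor genes.

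In the astrocytic arm, again, 0 of 37 members passed (0 higher and 0 lower), where 0.0101% of all genes were called, and DESeq2 and limma-voom called 0 as well. At an unadjusted p under 0.05 stood 2 members, Rab3a and Sv2a, or 5.41% against 2.99% of all genes. The median member log2 fold change was −0.04, against −0.003 over all genes, with 32 of 37 values negative against 51.2% of all genes. No member had separate groups here either (0 of 37, against 0.076% of all genes lower and 0.122% higher without overlap). The 95% interval lay within ±0.25 for 27 members and within ±0.5 for 33.

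Sv2a, the vesicle glycoprotein bound by the antiepileptic levetiracetam, stood at 516, 539 and 556 CPM in the gfap Cre-positive and 555, 581 and 589.9 CPM in the gfap Cre-negative libraries. The groups overlapped through 1 library, and the other 5 of 6 Cre-positive libraries were below all Cre-negative ones. Its log2 fold change was −0.10 (95% interval −0.19 to −0.016, SE 0.042, adjusted p = 1.00 by edgeR).

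Rab3a had the largest difference by value, at 0.931, 1.07 and 1.35 CPM in the gfap Cre-positive and 1.05, 1.82 and 2.33 CPM in the gfap Cre-negative libraries, with overlap and at very low counts. Its log2 fold change was −0.64 (95% interval −1.16 to −0.11, SE 0.25, adjusted p = 1.00 by edgeR). Doc2a, a calcium sensor of slow release, stood at 3.28, 3.71 and 5.62 and 3.94, 4.47 and 5.79 CPM (Cre-positive first; log2 fold change −0.24), where library gfap Cre-positive 3 was high and the other 5 lay below the Cre-negative group. Syt2 stood at 32.6, 38.5 and 41.3 and 30.7, 47.7 and 64.7 CPM (−0.36), with the Cre-positive libraries closely spaced inside the Cre-negative range. Unc13c, a Munc13 form of cerebellar granule cells, stood at 14.7, 23.4 and 26.8 and 17.5, 28.7 and 39.1 CPM (−0.35), with overlap. None of these 4 passed. Among the other presynaptic genes 0 of 80 passed and 0 stood at an unadjusted p under 0.05 in the gfap line, by edgeR.

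The third question, whether the Cre comparisons differ between the arms, was tested as an interaction. No member passed (0 of 37, where 0.0101% of all genes were called), 1 stood at an unadjusted p under 0.05 (Sv2a, 2.70% against 3.5% of all genes), and DESeq2 and limma-voom called 0. The Sv2a difference (syn contrast minus gfap contrast) was 0.14 (95% interval 0.014 to 0.26, SE 0.060, adjusted p = 1.00 by edgeR). The next in order of p were Rab3a (0.56, 95% interval −0.19 to 1.30), Stx1a (−0.17, −0.42 to 0.073), Syn3 (0.31, −0.15 to 0.77) and Syp (0.091, −0.055 to 0.24), each with an interval that includes 0. Syn3 is a minor synapsin and Syp the most used vesicle marker. Of the 37 differences between arms 14 were negative, against 49.7% over all genes. For 19 members the interval of the difference between arms lay within ±0.25 and for 33 within ±0.5, so smaller differences between arms were not detectable for many of them.

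**Figure D2:**
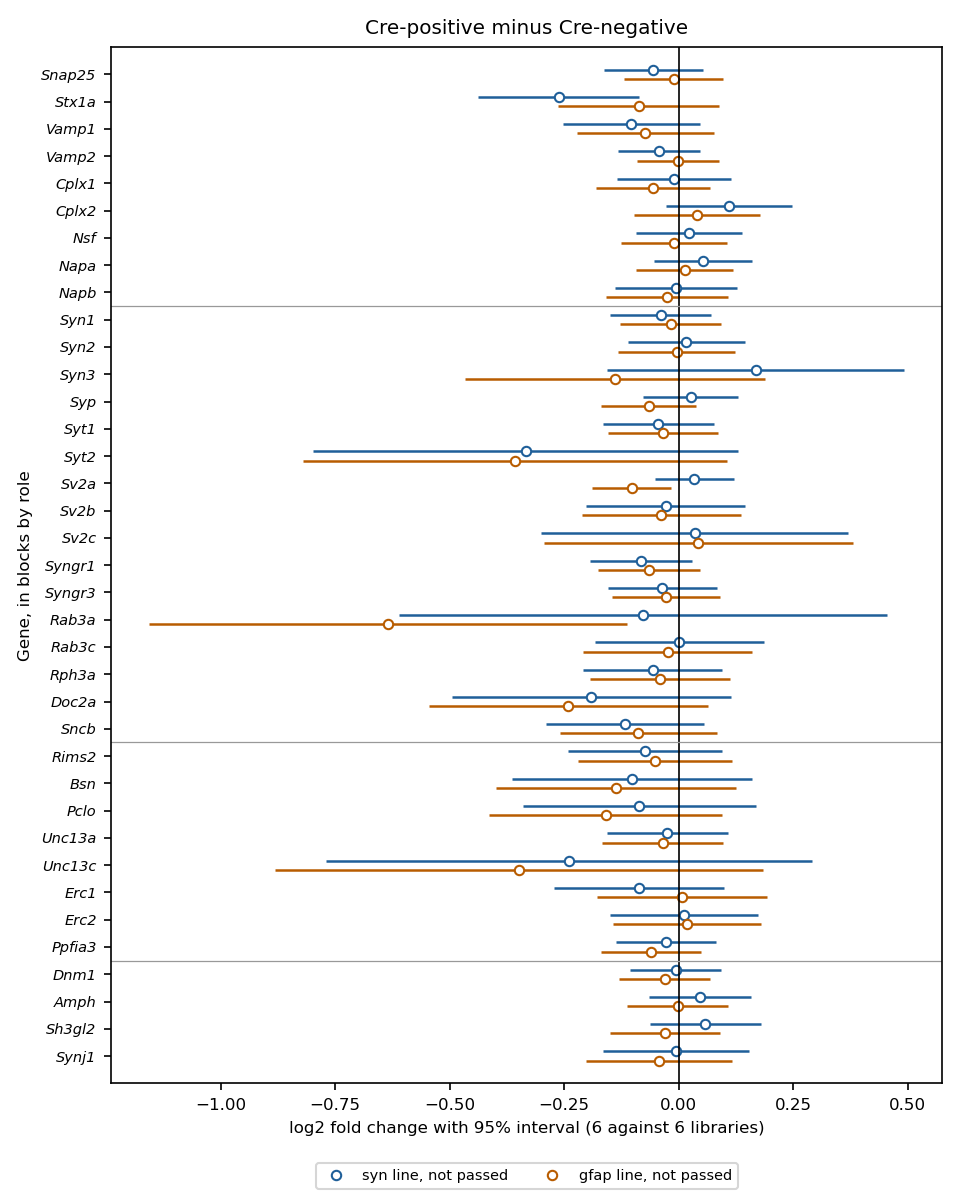
Log2 fold change of Cre-positive minus Cre-negative libraries for the 37 tested members (points), with the 95% interval (lines), in the syn line (blue) and the gfap line (orange), 6 against 6 libraries each and genes in blocks by role. All points are open because none passed, and most intervals cross 0, with Stx1a in the syn line and Rab3a and Sv2a in the gfap line as exceptions.

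The lines themselves differed. In the Cre-negative mice, 19 of 37 members were lower in the syn line than in the gfap line and 0 were higher, where 16.6% of all genes were called lower and 31.2% in either direction. In the Cre-positive mice, which share no library with the Cre-negative ones, 17 were lower and 0 higher, where 14.7% of all genes were called lower and 27.5% in either direction. With RLE or upper-quartile scaling, a filter at 1 CPM, DESeq2 or a choroid plexus covariate, Unc13a was also called, as higher, in both comparisons. Syn3 was called higher in the Cre-positive one under the same settings. With limma-voom, fits of 2 groups or both libraries that stand apart left out, Unc13a and Syn3 were called higher in the Cre-positive comparison alone. Upper-quartile scaling gave 17 lower and 1 higher in the Cre-negative and 14 lower and 2 higher in the Cre-positive mice. The median log2 fold change of the members was −0.20 and −0.17 (Cre-negative and Cre-positive mice), against −0.02 over all genes in both. Values were negative for 31 and 30 members (52.7% and 53.4% of all genes), and 23 members in each comparison stood at an unadjusted p under 0.05 (41.9% and 38.8% of all genes). In whole tissue, fewer neurons and less of these RNAs per neuron cannot be told apart. Nor can either be told apart from the cell composition, reads outside genes or handling named below.

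The 16 members lower in both line comparisons (10.6% of all genes were) came from all roles, with Erc2 as the 1 active zone gene. Sv2a, Rab3c and Ppfia3 passed in the Cre-negative mice alone and Sncb in the Cre-positive mice alone, and these differences between the comparisons are those tested as the interaction above, which none passed. The size of the changes was modest, from −0.40 to −0.15 in the Cre-negative and from −0.35 to −0.16 in the Cre-positive mice among those called. Both comparisons had the same sign for 34 of 37 members, against 81.9% of all genes. Over the 37 members the log2 fold changes of the 2 comparisons had a Pearson r of 0.76 (Spearman 0.81), against 0.79 over all genes, as a description across genes that share libraries. Libraries did not overlap between lines, with syn lower, for 8 members in the Cre-negative mice (5.43% of all genes) and 15 in the Cre-positive mice (7.64%), and with syn higher for 0 members in both (5.54% and 5.65% of all genes). Syn2, Vamp2, Snap25, Syp and Cplx1 did so in both (5 members, 3.06% of all genes).

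Of the genes for SNARE proteins and their handling, 6 of 9 were lower in each line comparison (median −0.22 in both). Cplx2 had the largest difference among them. It stood at 1299, 1397 and 1468 CPM in the syn and 1459, 1812 and 2176 CPM in the gfap libraries of Cre-negative mice. Only gfap Cre-negative 4, a library that stands apart, reached into the syn range. The log2 fold change was −0.40 (95% interval −0.54 to −0.26, SE 0.067, adjusted p = 9.78e-05 by edgeR). In the Cre-positive mice it stood at 1322, 1514 and 1609.7 and 1673, 1917 and 1989 CPM (syn first), without overlap, for a log2 fold change of −0.33 (95% interval −0.47 to −0.19, SE 0.067, adjusted p = 0.0008 by edgeR).

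Cplx1, the second complexin, stood at 419, 508 and 562 CPM (syn) and 589, 619 and 651 CPM (gfap) in Cre-negative mice and at 488, 500.4 and 515 and 524, 606 and 655 CPM in Cre-positive mice. Every syn library lay below every gfap library of the same Cre status. Its log2 fold changes were −0.30 (95% interval −0.42 to −0.17, SE 0.061, adjusted p = 0.0006 by edgeR) and −0.25 (95% interval −0.38 to −0.13, SE 0.061, adjusted p = 0.0032 by edgeR).

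Nsf, the ATPase that takes spent SNARE complexes apart, stood at 1071, 1208 and 1309 CPM (syn) and 1250.3, 1413 and 1669 CPM (gfap) in Cre-negative mice, where gfap Cre-negative 4 was again the lowest of its group and gave the overlap. Its log2 fold change was −0.25 (95% interval −0.37 to −0.14, SE 0.056, adjusted p = 0.00137 by edgeR). In Cre-positive mice it stood at 1098, 1220.1 and 1331 and 1342, 1427 and 1496 CPM, without overlap, for a log2 fold change of −0.22 (95% interval −0.34 to −0.11, SE 0.056, adjusted p = 0.00501 by edgeR).

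Vamp2, the main vesicle SNARE of the forebrain, stood at 1025, 1093 and 1180.3 CPM (syn) and 1224, 1262 and 1293 CPM (gfap) in Cre-negative mice and at 1042, 1066 and 1098 and 1169, 1255 and 1351 CPM in Cre-positive mice. The groups did not overlap in either. The log2 fold changes of the line comparisons were −0.20 (95% interval −0.29 to −0.11, SE 0.044, adjusted p = 0.00138 by edgeR) and −0.24 (95% interval −0.33 to −0.15, SE 0.044, adjusted p = 0.000292 by edgeR). Snap25, its partner on the plasma membrane, was lower too, at −0.22 and −0.26 on the log2 scale and with no overlap, as was Napb, the neuronal SNAP adaptor (−0.24 and −0.22). Napa, the form found in most cells, did not pass (−0.13, adjusted p = 0.0567, and −0.090, 0.205, edgeR), nor did Vamp1 (−0.021 and −0.052) or Stx1a (0.0044 and −0.17).

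**Figure D3:**
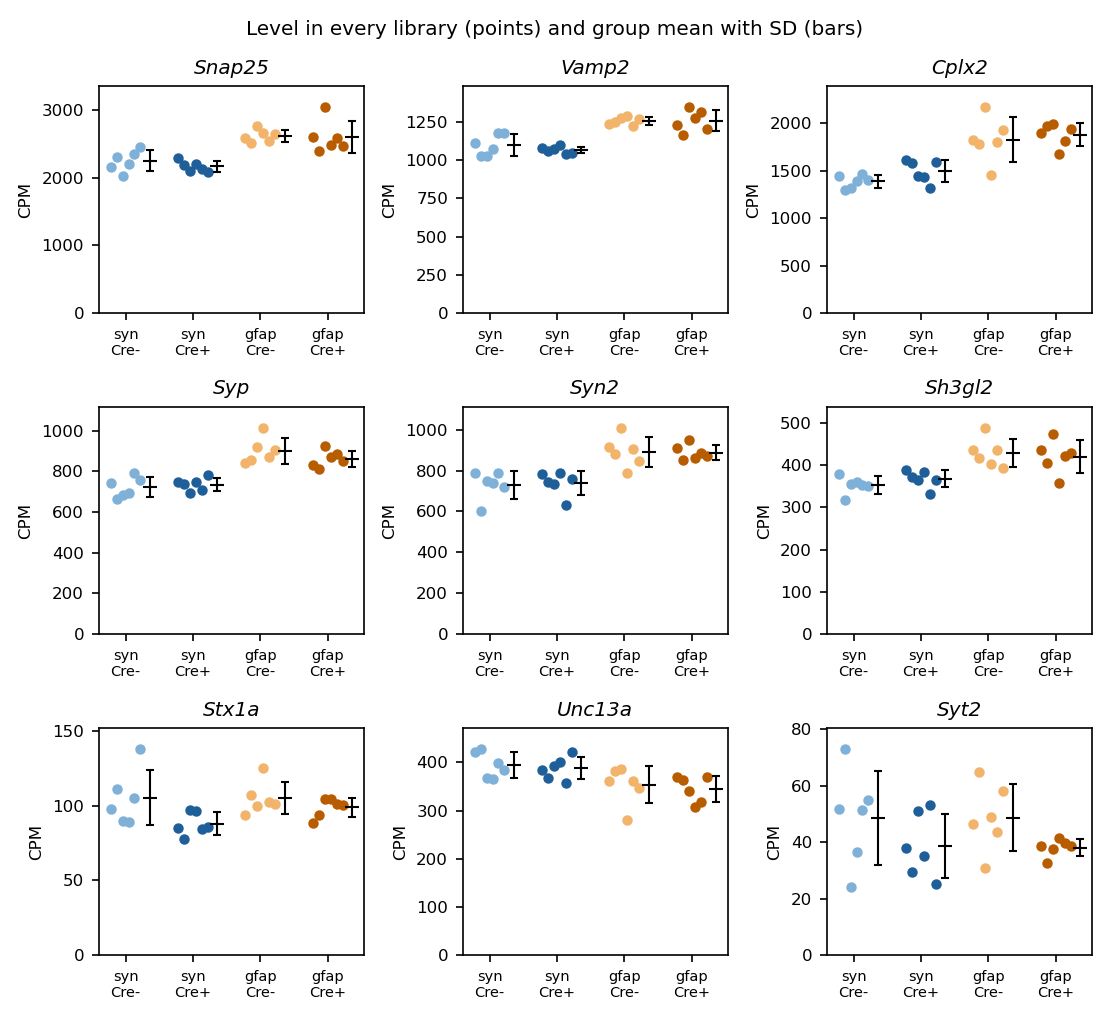
CPM of 9 members in every library (points) with the group mean and SD (bars), n = 6 per group, on axes that start at 0. Snap25, Vamp2, Syp and Syn2 are lower in all syn than in all gfap libraries of the same Cre status, Unc13a lies slightly the other way with overlap, and Syt2 spreads from 24.2 to 73.1 CPM within syn Cre-negative.

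Among vesicle genes, 8 of 16 were lower in the Cre-negative and 7 of 16 in the Cre-positive mice (medians −0.21 and −0.16). Syp, synaptophysin, had the smallest p of all members in the Cre-negative mice. It stood at 665, 717 and 791 CPM (syn) and 841, 889.9 and 1016 CPM (gfap) in Cre-negative mice and at 693, 742 and 781 and 810.0, 859.6 and 924 CPM in Cre-positive mice, with no overlap in either. Its log2 fold changes were −0.32 (95% interval −0.42 to −0.22, SE 0.051, adjusted p = 5.30e-05 by edgeR) and −0.23 (95% interval −0.33 to −0.13, SE 0.051, adjusted p = 0.0016 by edgeR).

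Syn2, a synapsin that tethers vesicles in the reserve pool, stood at 603, 745 and 786 CPM (syn) and 787, 895 and 1011 CPM (gfap) in Cre-negative mice. The groups met closely there, the highest syn library at 786.5 and the lowest gfap library, gfap Cre-negative 4, at 786.8 CPM. In Cre-positive mice it stood at 631, 752 and 786 and 851, 879 and 952 CPM, well apart. The log2 fold changes of the line comparisons were −0.29 (95% interval −0.41 to −0.16, SE 0.063, adjusted p = 0.00118 by edgeR) and −0.27 (95% interval −0.39 to −0.14, SE 0.063, adjusted p = 0.00276 by edgeR). The paralog Syn1 had smaller values that did not pass (−0.095 and −0.12), and Syn3 lay on the other side (0.10 and 0.41, adjusted p = 0.661 and 0.0565, edgeR), at 4.24 to 10.5 CPM over all libraries.

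Sv2a stood at 442, 501 and 545 CPM (syn) and 555, 581 and 589.9 CPM (gfap) in Cre-negative mice, without overlap. In Cre-positive mice it stood at 492, 509 and 525 and 516, 539 and 556 CPM, with overlap. The log2 fold changes were −0.21 (95% interval −0.30 to −0.12, SE 0.042, adjusted p = 0.000519 by edgeR) and −0.074 (95% interval −0.16 to 0.012, SE 0.042, adjusted p = 0.193 by edgeR), so only the first passed. The paralog Sv2b, found at many glutamatergic terminals, was lower in both (−0.33 and −0.32), and Sv2c, a form of basal ganglia and hindbrain, did not pass (0.16 and 0.15).

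Syngr1 stood at 490.4, 532 and 594 CPM (syn) and 603, 635 and 659 CPM (gfap) in Cre-negative mice and at 467, 505 and 546 and 544, 598 and 697 CPM in Cre-positive mice. The groups were separate in the first and just overlapped in the second, where the highest syn library stood at 546 and the lowest gfap library at 544 CPM. Its log2 fold changes were −0.24 (95% interval −0.35 to −0.13, SE 0.054, adjusted p = 0.00153 by edgeR) and −0.26 (95% interval −0.37 to −0.15, SE 0.054, adjusted p = 0.00107 by edgeR). Syngr3 (−0.20 and −0.20) and the calcium sensor Syt1 (−0.22 and −0.23) were lower in both. The GTPase Rab3c (−0.23, Cre-negative mice) and beta-synuclein, Sncb (−0.24, Cre-positive mice), passed once each. Not passing were Syt2 (−0.0011 and 0.022), the Rab3 effector Rph3a (−0.020 and −0.036), Doc2a (−0.0029 and 0.047) and Rab3a (−0.62 and −0.059).

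By median, the active zone genes stood closest to no difference among the roles (−0.08 and −0.08), with values of both signs (3 of 8 positive in each comparison). Called lower were 2 of 8 in the Cre-negative and 1 of 8 in the Cre-positive mice, where 16.6% and 14.7% of all genes were. Erc2, a scaffold of the CAST family, was lower in both. It stood at 167, 196 and 223 CPM (syn) and 199, 242 and 304 CPM (gfap) in Cre-negative mice, with overlap, and at 167, 197 and 210.0 and 220.4, 246 and 270.4 CPM in Cre-positive mice, without overlap. The log2 fold changes of the line comparisons were −0.34 (95% interval −0.50 to −0.18, SE 0.079, adjusted p = 0.00202 by edgeR) and −0.35 (95% interval −0.51 to −0.19, SE 0.079, adjusted p = 0.00221 by edgeR). The scaffold partner Ppfia3, a liprin, was lower in Cre-negative mice (−0.15, adjusted p = 0.0371, edgeR).

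Unc13a, the priming factor of most glutamatergic synapses, had positive values. It stood at 365, 391 and 429 CPM (syn) and 281, 362 and 385 CPM (gfap) in Cre-negative mice and at 358, 389 and 421 and 308, 352 and 371 CPM in Cre-positive mice, with overlap in both. The log2 fold changes were 0.16 (95% interval 0.027 to 0.29, SE 0.065, adjusted p = 0.0603 by edgeR) and 0.17 (95% interval 0.036 to 0.30, SE 0.065, adjusted p = 0.052 by edgeR), past the threshold under 8 and 12 of 23 alternatives. The scaffolds Bsn (−0.11 and −0.077), Pclo (0.11 and 0.19), Rims2 (−0.053 and −0.075) and Erc1 (−0.11 and −0.20) and the priming factor Unc13c (0.066 and 0.18) did not pass.

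Of the endocytosis genes 3 of 4 were lower in each comparison (medians −0.22 and −0.18). Sh3gl2, endophilin A1, which bends membrane at the vesicle neck, stood at 317, 355 and 379 CPM (syn) and 393, 426 and 488 CPM (gfap) in Cre-negative mice, without overlap. In Cre-positive mice it stood at 330.5, 369 and 388 and 358, 425 and 473 CPM, and gfap Cre-positive 4 was low enough to overlap. Its log2 fold changes were −0.28 (95% interval −0.40 to −0.16, SE 0.059, adjusted p = 0.000788 by edgeR) and −0.19 (95% interval −0.31 to −0.073, SE 0.059, adjusted p = 0.0158 by edgeR).

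Amph, amphiphysin, which brings dynamin to the neck, stood at 233, 266 and 291 CPM (syn) and 288, 307 and 361 CPM (gfap) in Cre-negative mice and at 236, 273 and 289 and 306, 311 and 324 CPM in Cre-positive mice. The groups overlapped through 1 library in the first and were separate in the second. The log2 fold changes of the line comparisons were −0.26 (95% interval −0.37 to −0.14, SE 0.054, adjusted p = 0.000889 by edgeR) and −0.21 (95% interval −0.32 to −0.096, SE 0.054, adjusted p = 0.00603 by edgeR). Dnm1 was lower in both (−0.19 and −0.16), and Synj1, a phosphatase needed to shed clathrin coats, did not pass (−0.15 and −0.12).

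**Figure D4:**
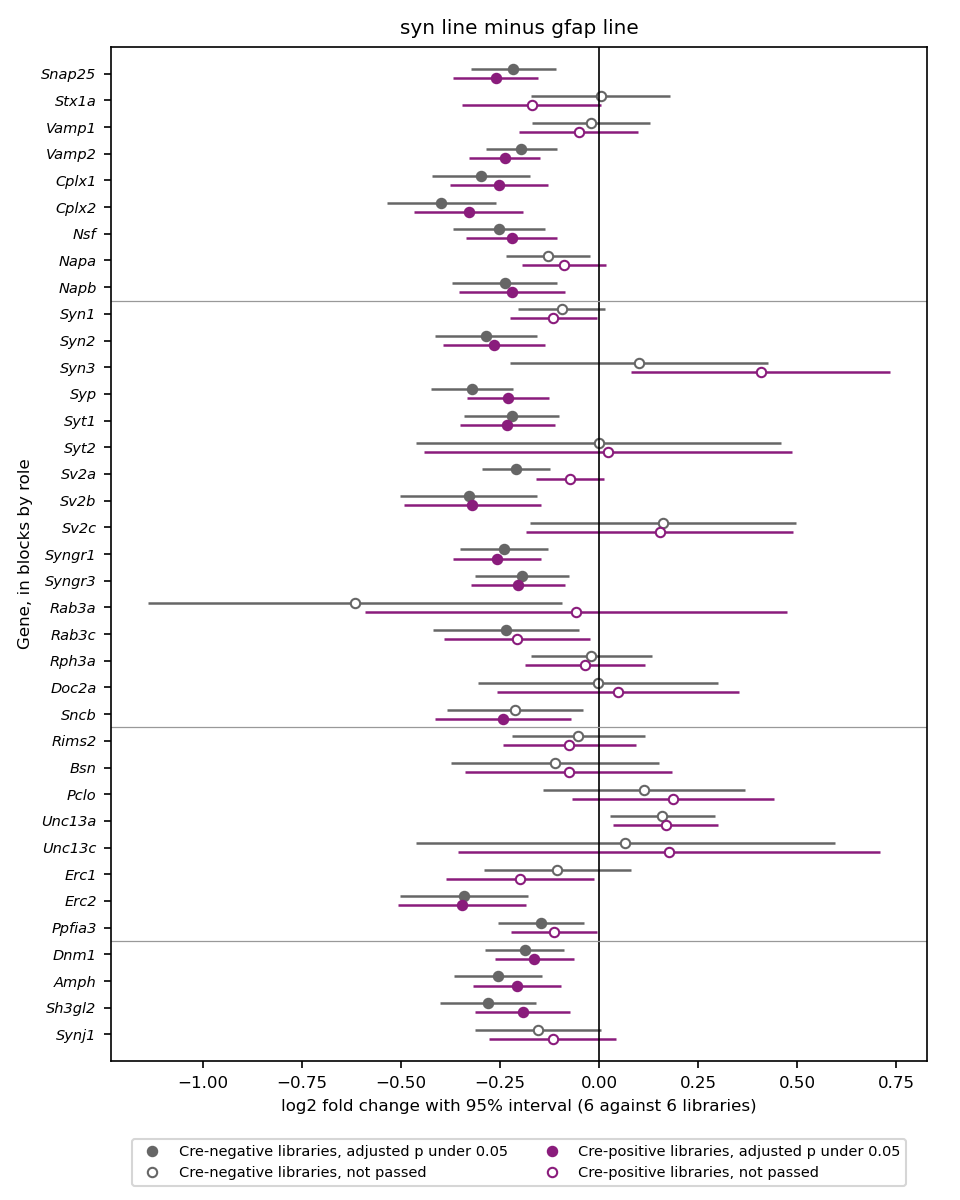
Log2 fold change of syn minus gfap libraries for the 37 tested members (points), with the 95% interval (lines), in Cre-negative (grey) and Cre-positive libraries (purple), filled where the adjusted p was under 0.05. Filled points lie to the left of 0, 19 in the Cre-negative and 17 in the Cre-positive comparison, and the wide intervals belong to Rab3a, Unc13c and Syt2.

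Of the 80 other presynaptic genes, 33 were lower, 5 higher and 42 did not pass in the Cre-negative mice, where 16.6% of all genes were lower and 14.6% higher. In the Cre-positive mice 31 were lower, 5 higher and 44 did not pass, where 14.7% of all genes were lower and 12.8% higher (median log2 fold change −0.13 in both). Among the smallest p in Cre-negative mice were those of the vesicle protein Tprgl (−0.29), the synaptotagmin Syt11 (−0.25), the dense-core vesicle priming factor Cadps2 (−0.42), and, higher, the priming factor Unc13b (0.49) and the ubiquitous dynamin Dnm2 (0.33). In Cre-positive mice they were the carrier protein Scamp1 (−0.25), Unc13b (0.51, higher), synaptoporin, Synpr (−0.35), the clathrin adaptor subunit Ap2b1 (−0.23), Tprgl (−0.23) and the SV2-related Svop (−0.25). Higher in both were Unc13b, Dnm2, Ppfia1, Snap23 and Prrt2, the last at under 1 CPM. Dnm2, Snap23 and Ppfia1 are also expressed widely outside neurons.

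Unc13b stood at 72.5, 74.8 and 78.9 CPM (lowest, median, highest) in syn Cre-negative and at 43.7, 54.6 and 62.6 CPM in gfap Cre-negative libraries, with no overlap. In Cre-positive mice it stood at 59.8, 72.9 and 84.8 CPM (syn) and 45.7, 50.9 and 58.8 CPM (gfap), again separate.

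Markers of some other cells moved with the line. The calls below stand beside shares over all genes of 14.6% higher and 16.6% lower in Cre-negative mice. In Cre-positive mice these shares were 12.8% higher and 14.7% lower. Of 16 mature oligodendrocyte genes, 12 were higher in the syn line in Cre-negative and 16 in Cre-positive mice (median log2 fold change 0.38 and 0.58), and their summed level was 5939 to 9161 and 6363 to 8516 CPM in the syn groups against 4527 to 5781 and 4016 to 5931 CPM in the gfap groups (Cre-negative first). Of 15 choroid plexus genes, 15 and 13 were higher (medians 4.17 and 3.19), with sums of 114 to 5582 and 78.8 to 5292 CPM in the syn groups against 60.2 to 217 and 59.6 to 289 CPM. These sums were split inside the syn line. Each syn group held libraries within the gfap range and libraries far above it, and 0 of the 15 genes had separate groups. Of 18 pan-neuronal genes, 10 and 9 were lower and 2 and 2 higher (medians −0.21 and −0.16), while their sums overlapped, at 7873 to 8720 and 7486 to 8710 CPM in the syn groups against 7766 to 8758 and 7982 to 8498 CPM. Of 13 endothelial genes, 6 and 8 were lower and 0 higher (medians −0.23 and −0.27), with sums of 227 to 262 and 227 to 262 CPM in the syn groups against 263 to 334 and 269 to 337 CPM in the gfap groups. Of 14 interneuron genes, 4 and 6 were lower and 0 higher (medians −0.15 and −0.21). No gene of the lists named so far was at 0 throughout. The 15 genes of cortical and hippocampal projection neurons had 5 and 6 lower and 0 higher (medians −0.16 and −0.12). The remaining marker lists were mixed or held few calls. Of 16 astrocyte genes, 2 and 3 were higher and 3 and 3 lower (medians −0.07 and −0.08). Of 14 microglia genes 2 and 3 were lower. Of 12 tested cerebellum genes, 0 and 3 were higher and 4 and 3 lower. Of 10 tested thalamus genes 0 and 3 were higher, and of 11 tested striatum genes 2 and 0 were lower. Of 12 meningeal fibroblast genes 1 and 0 were higher. Of 14 brainstem and spinal projection genes, 4 were at 0 throughout and 5 were tested, of which 0 passed.

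With the oligodendrocyte level as a covariate, 9 and 2 members were called, all lower, where 18.4% and 7.89% of all genes were called, and the member medians were −0.14 and −0.10. These were Snap25, Vamp2, Cplx1, Cplx2, Napa, Syp, Sv2a, Syngr1 and Amph in the Cre-negative mice and Snap25 and Napa in the Cre-positive mice, and since Napa had not passed without the covariate, 8 of 19 and 1 of 17 calls were kept. The oligodendrocyte sum itself separates the lines within each Cre status, so covariate and line overlap. With the choroid plexus level as a covariate, 16 and 16 members were lower and 1 and 2 higher. The part of cell composition, of reads outside genes or of handling in the line difference was not tested beyond these values.

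**Figure D5:**
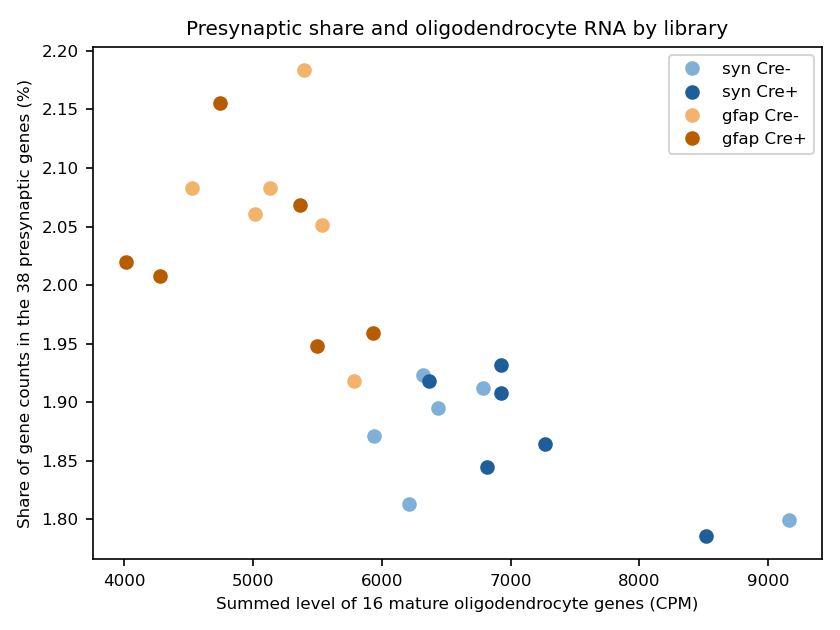
Share of gene counts in the 38 presynaptic genes (%, vertical) against the summed CPM of 16 mature oligodendrocyte genes (horizontal), 1 point per library and 1 colour per group, on axes that do not start at 0. The syn libraries lie at 1.79 to 1.93% and the gfap libraries at 1.92 to 2.18%, with the syn libraries at higher oligodendrocyte sums.

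As a share of all gene counts, the 38 genes took 1.87 ± 0.0518% (SD, n = 6) in syn Cre-negative, 1.88 ± 0.0551% in syn Cre-positive, 2.06 ± 0.0854% in gfap Cre-negative and 2.03 ± 0.0769% in gfap Cre-positive libraries. The difference between Cre-positive and Cre-negative means was smaller than the SD in both lines. Transcript length also moved with the line: the median log2 fold change of all coding genes over 8000 bases was 0.005 and −0.005, and that of coding genes under 3000 bases −0.15 and −0.15. The 15 long members had medians of −0.11 and −0.08 and the 6 short ones −0.20 and −0.19, and with the length index as a covariate 21 and 20 members were lower and 0 higher.

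After the group means were removed, the members varied together only in part. The median Pearson r over 666 pairs of members was 0.26 across 24 libraries, with 471 pairs positive. The members closest to the mean of all members were Rims2 (r = 0.87), Syt1 (0.86), Dnm1 (0.85) and Syngr1 (0.81), while Napa (−0.0003) and Syp (0.10) did not follow it. Of other genes, those most like the member mean were Rab6b (0.91), Clip3 (0.90), Pacsin1 (0.88), Ptprn2 (0.88) and Cep170b (0.88). Each member is itself part of that mean and the other genes are not, so the r values of members and other genes are not on equal terms. All points share library depth, scaling and tissue composition, so these values describe the libraries.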

How the data were processed

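Total RNA of mouse brain was sequenced on an Illumina system, per the labels' protocols. The deposited files hold whole-number counts of reads per Ensembl gene, 1 file per library. HISAT2, HTSeq 0.6.0, DESeq2 1.6.3 and mm10 are named in the submitters' processing notes. The annotation release and strand setting were not given there. The 5 summary lines of each file were left out of every sum and test. Reads with no gene made up 4.47 to 11.1%, ambiguous reads 3.19 to 7.46%, unaligned reads 1.42 to 4.71%, reads of low mapping quality 1.54 to 2.21% and reads with several alignments 13.7 to 15.6%, as shares of all lines. Identifiers were matched to symbols in GENCODE M21 (GRCm38), which named 52489 of 52636 (99.72%). Gene counts summed to 41596313 to 69652824 per library, which leaves counting error small for all members but Rims1, Rab3a, Doc2a and Syn3. No 2 replicates agreed within sampling noise (chi-square per gene 6.65 to 134.2 over 60 pairs, where counting noise gives 1).

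Genes were filtered with edgeR 4.0.16 (filterByExpr), scaled by TMM and fitted in 1 model of 4 groups over 24 libraries (quasi-likelihood F test, robust, 20 residual degrees of freedom, R 4.3.3), with Benjamini-Hochberg adjustment over 19726 genes and a threshold of 0.05. Intervals are 95% intervals of the log2 fold change. CPM are the deposited counts scaled to a common TMM-adjusted library total, and levels per length divide CPM by merged exon length in kb. The p-values measure the spread between libraries. Every member is accounted for by role. Given in full are the 10 called members with the smallest p in the Cre-negative line comparison, the 5 with the smallest p in each Cre comparison and in the arm difference, and up to 6 other presynaptic genes per line comparison, of which 1 is not reported here. Genes further named (Unc13a, Erc2, Stx1a alternatives and Unc13b levels) were chosen after their values were seen. Members and lists were chosen with earlier results of these data known. Alternatives were DESeq2 1.42.0, limma-voom 3.58.1 with quality weights, RLE and upper-quartile scaling, other filters, oligodendrocyte and choroid plexus covariates, fits of 2 groups and each library left out. A length covariate and the removal of both libraries that stand apart were chosen after seeing the data. The scripts were tested on simulated data.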

Additional observations from a re-analysis of the deposited data

Results flagged for a closer look

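Within groups of 6, 1 library stood far from the other 5 in 16 of 200 tests on member levels and paralog ratios (8%), by a gap test that chance passes in about 1 of 20 groups, or 10 here. Pairs with Rims1 or Rab3a were left out of the ratio tests because of their low counts. Library gfap Cre-positive 3 was highest for Snap25 (3056 CPM), Dnm1 (1588 CPM) and Doc2a (5.62 CPM). Library syn Cre-positive 5 was lowest for Syn2 (630.7 CPM), Bsn (352 CPM) and the log2 ratio of Sv2b to Sv2a (−0.33). Library gfap Cre-negative 4, which stands apart in long transcripts, was lowest for Rims2 (40.5 CPM) and for the log2 ratios of Syn3 to Syn1 (−6.98) and Sv2c to Sv2a (−4.71). Other libraries far from their group were those of Syn2 in syn Cre-negative 2 (603.1 CPM, lowest), Rab3a in syn Cre-positive 6 (1.95 CPM, highest) and syn Cre-negative 5 (2.03 CPM, highest), Sncb in syn Cre-positive 2 (224 CPM, lowest) and Amph in gfap Cre-negative 3 (361 CPM, highest). The log2 ratio of Unc13c to Unc13a was lowest in gfap Cre-positive 1 (−4.65), and that of Pclo to Bsn highest in syn Cre-negative 4 (−0.48). No member's Cre comparison differed between the arms (0 of 37, edgeR).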

How the results depend on the processing

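With the oligodendrocyte level as a covariate, 9 members were called in the Cre-negative and 2 in the Cre-positive line comparison. Of the other presynaptic genes 23 and 7 were called. In the Cre-positive mice these counts lay near or below the share of all genes called with this covariate, given above. The member medians were −0.14 and −0.10, against −0.20 and −0.17 without it. The same covariate turned the log2 fold change of Rab3c in Cre-negative mice to 0.0061 (adjusted p = 0.969, edgeR). Under the other alternatives that kept all libraries, or left out both that stand apart, 16 to 21 members were called in Cre-negative and 16 to 20 in Cre-positive mice. Leaving out 1 library at a time gave 17 to 22 and 14 to 19 called members, 32 to 41 and 27 to 36 other presynaptic genes, and member medians of −0.22 to −0.17 and −0.20 to −0.15. In the Cre comparisons and the arm difference, each such fit called 0 members and 0 other presynaptic genes, with medians of −0.052 to −0.012 (syn), −0.069 to −0.014 (gfap) and −0.0049 to 0.055 (difference). Of the called members, 8 of 19 and 1 of 17 (Snap25) were called in all 23 alternatives. No paired analysis was possible because the replicate numbers follow accession order and pair no mice. Depth limits Rims1, Rab3a, Doc2a and Syn3. The causes of these changes were not tested.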
